A study of Mus musculus with 10 samples.

Results

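The core germinal centre genes described here are 10 genes taken by name from the count table: Bcl6, Mef2b, Mef2c, S1pr2, Rgs13, Gcsam, Nuggc, Mybl1, Neil1 and Basp1. The table holds 46316 genes, and all 10 were found in it. They were measured by poly(A) RNA sequencing of sorted splenic B cells from C57BL/6 mice, in 10 libraries. The YC controls (4 libraries, from 3 females and 1 male) carry the alleles YFPstopF/+ and Cg1Cre/+, and their B220+YFP+ cells were sorted 10 days after the second of 2 injections of sheep red blood cells given 20 days apart. The pBIC lymphomas (3 libraries, all from females) carry p53F/F, Blimp1F/F and IKK2castopF/stopF together with the Cg1Cre/+ allele. The pBIC10 lymphomas (3 libraries, from 2 females and 1 male) carry the same alleles and IL-10F/F in addition. In the lymphoma mice Cre removes the floxed genes of p53, of Blimp1 and, in pBIC10, of IL-10, and releases an active form of the kinase IKK2. All 3 groups share Cg1Cre, which is driven from the C gamma 1 immunoglobulin locus and acts mainly in B cells that have been activated into the germinal centre. Lymphoma cells were sorted as B220+GFP+ from moribund mice, so the lymphoma groups differ from YC in genotype, disease and cell state at once. The ages of the mice are not given in the labels. For YC some label fields repeat lymphoma wording, so its description follows the design text of the series.

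The germinal centre is the site in a lymphoid follicle where activated B cells divide, mutate their antibody genes and are selected for affinity. Bcl6 is the transcriptional repressor that holds B cells in this state, and MEF2B is one of the factors that switch Bcl6 on. S1PR2, RGS13 and GCSAM act on the movement of the cells, and S1PR2 confines them to the germinal centre. The mice model the activated B cell type of human large B cell lymphoma, which is thought to arise from B cells on the way out of the germinal centre.

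All 10 genes were called lower in pBIC than in YC, in a comparison where 27.7% of all tested genes were called lower. All 10 were also called lower in pBIC10, where 26.9% of tested genes were. The series describes YC as normal germinal centre B cells, but the sort also held RNA of naive and plasma cell genes, given below. Percents of YC are therefore percents of this sort. In pBIC 9 of the 10 stood at under 10% of the YC mean, and in pBIC10 6 did. Mef2c kept the largest share, at 56.6% of YC in pBIC and 52.4% in pBIC10. Gcsam was close to absent from both lymphomas, with 1 read in 3 pBIC libraries and 3 reads in 3 pBIC10 libraries against 4837 reads in 4 YC libraries. Between the lymphoma groups, Nuggc, Basp1, Rgs13, Neil1 and S1pr2 were higher in pBIC10 (5 of 10, beside 15.6% of tested genes called higher). Mef2b was lower in pBIC10 (1 of 10, beside 15.1% called lower).

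Upstream sequences are shown for 4 members, to set the letters before their start sites beside the levels that follow. RefSeq promoters (build GRCm38.p6, an earlier build than the GRCm39 of the counts) were matched by symbol for 8 of the 10 genes, with 11 start sites. Nuggc and Mybl1 had no entry. The 250 bases before each start were searched on both strands for the octamer ATGCAAAT, for the BCL6 motif TTCCTNGAA and for the MEF2 motif. The octamer is bound by the factors OCT1 and OCT2. The octamer was found once, upstream of Mef2b, and occurs in 1.60% of 32851 promoters. The BCL6 motif was found once, upstream of a start of Bcl6 itself, and occurs in 1.31%. The MEF2 motif, found in 2.92% of promoters, was in 0 of the 11. The first pair of sequences, with motif letters in capitals, is the Mef2b window (chr8:70152511-70152760, plus strand, octamer 85 to 78 bases before the start) and the Bcl6 window (chr16:23981284-23981533, minus strand, motif 168 to 160 bases before the start).
Mef2b: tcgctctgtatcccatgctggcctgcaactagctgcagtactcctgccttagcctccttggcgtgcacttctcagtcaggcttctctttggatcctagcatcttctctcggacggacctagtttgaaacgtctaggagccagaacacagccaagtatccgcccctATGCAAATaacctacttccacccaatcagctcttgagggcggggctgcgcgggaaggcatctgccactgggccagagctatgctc
Bcl6: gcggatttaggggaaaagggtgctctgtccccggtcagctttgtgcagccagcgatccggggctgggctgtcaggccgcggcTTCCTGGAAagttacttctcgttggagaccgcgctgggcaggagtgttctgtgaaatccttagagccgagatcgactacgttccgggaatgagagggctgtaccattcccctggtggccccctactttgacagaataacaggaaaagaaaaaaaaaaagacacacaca
The second pair, with CG dinucleotides in capitals, is shown because these windows hold the fewest and the most CG dinucleotides among the 11 of the members. The Rgs13 window (chr1:144177373-144177622, minus strand) has a GC content of 36.0% and 0 CG dinucleotides. The Basp1 window (chr15:25413765-25414014, minus strand) has 78.8% and 30. The median over all promoters was 52.4% GC and 6 CG dinucleotides. Among the other windows, a start of Mef2c, which kept 52.4% of its YC level in pBIC10, has 33.6% GC and 1 CG. Further starts of Mef2c have 44.8% GC with 6 CG and 49.6% GC with 4 CG. The other start of Bcl6, which kept 2.06% in pBIC10, has 58.4% GC and 21 CG. The Bcl6 window shown above has 54.8% GC and 13 CG. In pBIC10 Rgs13 kept 3.78% and Basp1 28.1%. The S1pr2 window (11.7% kept) has 59.2% GC and 14 CG, and that of Neil1 (5.35%) has 54.8% and 12. The Mef2b window (0.533%, pooled reads) has 56.0% GC and 9 CG, and that of Gcsam (0.0624%, pooled reads) has 51.6% and 3. A link between these letters and the levels was not tested.
Rgs13: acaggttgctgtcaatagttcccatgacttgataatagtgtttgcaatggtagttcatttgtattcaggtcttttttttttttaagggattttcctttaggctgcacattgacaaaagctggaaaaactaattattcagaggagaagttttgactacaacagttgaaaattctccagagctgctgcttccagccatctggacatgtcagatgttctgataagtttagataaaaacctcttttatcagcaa
Basp1: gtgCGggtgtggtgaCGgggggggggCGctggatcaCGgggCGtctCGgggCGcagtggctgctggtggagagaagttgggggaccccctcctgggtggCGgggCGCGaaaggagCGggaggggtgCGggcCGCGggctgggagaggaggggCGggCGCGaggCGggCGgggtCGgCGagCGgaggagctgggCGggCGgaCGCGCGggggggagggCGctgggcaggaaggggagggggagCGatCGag
A match of letters is a description and shows no binding.

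Libraries held 12.6 to 14.3 M counts in YC, 17.8 to 19.1 M in pBIC and 17.1 to 18.6 M in pBIC10. Levels are given in CPM (counts per M, scaled by TMM), and a count of 0 in 1 library allows a level of up to 0.154 to 0.246 CPM on this scale, set by 3 counts and covering counting error only. Of 46316 genes, 17718 had enough counts to be tested, all 10 members among them. The threshold for a call was an adjusted p of 0.05 in edgeR's quasi-likelihood F test across all tested genes. All 10 B lineage markers were detected in each group, and they summed to 9474 to 11898 CPM in YC, 2469 to 4345 in pBIC and 2977 to 5214 in pBIC10. The leading heavy chain segment Ighv8-11 made up 51.6 to 59.1% of all Ighv counts in pBIC, and Ighv7-3 made up 67.4 to 70.5% in pBIC10. Libraries of a lymphoma group may therefore be samples of the same clone, which was not tested, and p-values measure the spread among the libraries. Only pBIC10 was sequenced for this series. Since pBIC and YC come from an earlier series, batch and group cannot be told apart wherever pBIC10 is compared.

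**Figure D1:**
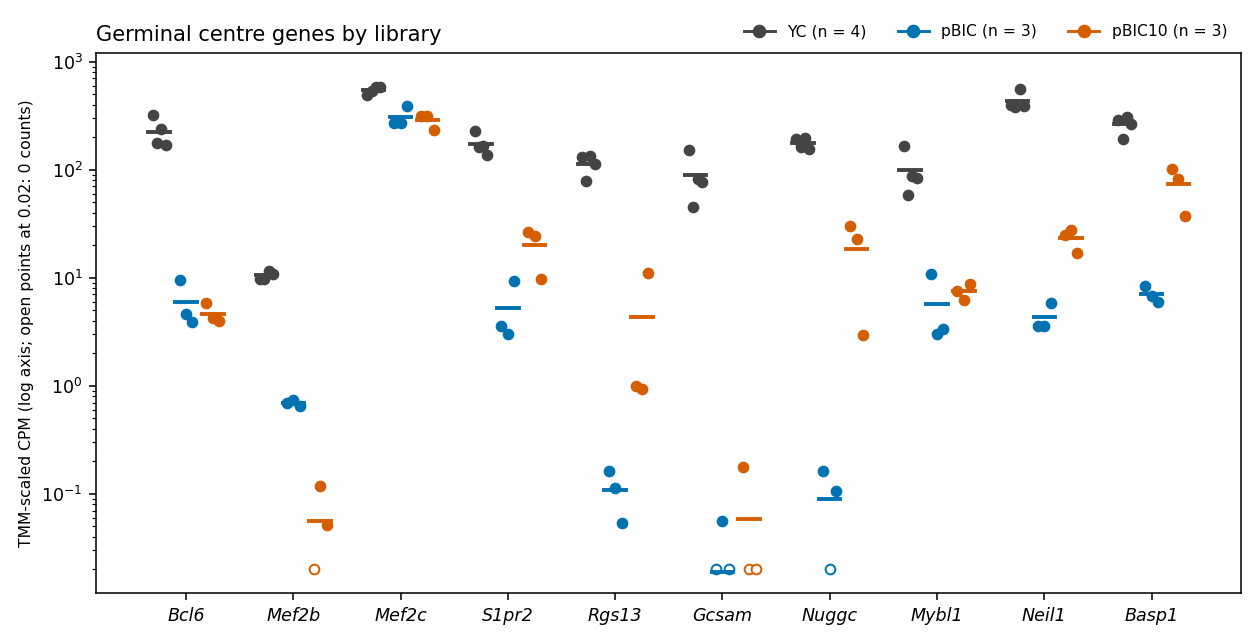
TMM-scaled CPM on a log axis for each member, with 1 point for each library of YC (n = 4), pBIC (n = 3) and pBIC10 (n = 3) and a line at the group mean; open points at 0.02 mark libraries with 0 counts. All YC points lie above all lymphoma points in each of the 10 genes, and Mef2c is the only gene whose lymphoma libraries all exceed 200 CPM.

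Bcl6 measured 321, 176, 237 and 168 CPM in YC, 9.49, 4.63 and 3.91 CPM in pBIC, and 5.78, 4.22 and 3.95 CPM in pBIC10. The YC libraries lay far above all lymphoma libraries, which overlapped with each other. The level left was 2.67% of the YC mean in pBIC and 2.06% in pBIC10. The log2 fold change against YC was -5.23 ± 0.38 (SE) in pBIC (adjusted p = 1.02e-06) and -5.60 ± 0.39 in pBIC10 (adjusted p = 6.76e-07). Between the lymphoma groups Bcl6 was not called (-0.37 ± 0.35, 95% interval -1.13 to 0.39, adjusted p = 0.451), and without pBIC replicate 1, the highest of the lymphoma libraries, the difference had the opposite sign (0.13, adjusted p = 0.776).

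Mef2b, which encodes an activator of Bcl6 that is mutated in some human lymphomas, had the lowest level of the members in YC per kb of exon. It measured 9.71, 9.75, 11.6 and 10.8 CPM in YC, 0.697, 0.735 and 0.643 CPM in pBIC, and 0.00, 0.117 and 0.0513 CPM in pBIC10. The 3 groups did not overlap, and the spread within YC and pBIC was small. In pBIC the level was 6.60% of YC (-3.91 ± 0.39, adjusted p = 7.70e-06). In pBIC10 a total of 3 reads against 566 in YC gave 0.533% of the YC level, with a 95% counting interval of 0.110 to 1.57% (edgeR adjusted p = 5.91e-07). Against the 38 reads of pBIC the same 3 reads gave a ratio of 8.11%, with a counting interval of 1.60 to 25.6% (edgeR adjusted p = 0.000717). Without pBIC10 replicate 2, which held 2 of the 3 reads, the fitted log2 fold changes were -8.22 against YC and -4.31 against pBIC. Mef2b shares exons with Borcs8, a lysosome positioning gene on the same strand, in an earlier annotation (GENCODE M21), so the division of reads between the 2 genes is uncertain. Borcs8 itself had 611 to 919 reads in YC, 505 to 888 in pBIC and 707 to 952 in pBIC10.

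Mef2c, which encodes a factor that B cells need to proliferate after antigen receptor signals, kept the largest share of its YC level in both lymphomas. It measured 494, 533, 579 and 587 CPM in YC, 272, 270 and 389 CPM in pBIC, and 315, 314 and 234 CPM in pBIC10. The YC libraries were above all 6 lymphoma libraries, which overlapped. The log2 fold changes against YC were -0.82 ± 0.18 in pBIC (adjusted p = 0.00182) and -0.93 ± 0.18 in pBIC10 (adjusted p = 0.000776). The difference between the lymphoma groups was not called (-0.11 ± 0.19, 95% interval -0.51 to 0.29, adjusted p = 0.692).

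Mybl1 encodes A-MYB, a factor of dividing germinal centre B cells. It measured 164, 58.6, 87.4 and 83.9 CPM in YC, 10.9, 3.0 and 3.32 CPM in pBIC, and 7.61, 6.21 and 8.77 CPM in pBIC10. The lowest YC library was still above all lymphoma libraries. The residual level was 5.83% in pBIC (-4.10 ± 0.51, adjusted p = 6.31e-05) and 7.65% in pBIC10 (-3.71 ± 0.50, adjusted p = 0.000106). The lymphoma groups overlapped and the difference was not called (0.39 ± 0.49, 95% interval -0.67 to 1.46, adjusted p = 0.581). This rested on pBIC replicate 1: without it the fall in pBIC was -4.96 and Mybl1 passed the test as higher in pBIC10 (1.26, adjusted p = 0.0302; 0.0302 to 0.957 over the alternatives).

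Of the genes that act on cell position, S1pr2 encodes the receptor for sphingosine 1-phosphate that confines B cells to the germinal centre. It measured 226, 163, 167 and 136 CPM in YC, 3.54, 3.0 and 9.26 CPM in pBIC, and 26.5, 24.4 and 9.69 CPM in pBIC10. The lowest pBIC10 library and the highest pBIC library were almost level, with no overlap. The remaining level was 3.05% in pBIC (-5.03 ± 0.49, adjusted p = 1.25e-05) and 11.7% in pBIC10 (-3.10 ± 0.44, adjusted p = 0.000149). S1pr2 was higher in pBIC10 than in pBIC (1.93 ± 0.45, adjusted p = 0.00737), by 2.63 without pBIC replicate 3, which also took the fall in pBIC against YC to -5.72. This call was lost when no filter on low counts was used (adjusted p = 0.0557; over the alternatives 5.94e-05 to 0.0557).

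Rgs13 encodes a regulator that shortens chemokine receptor signals in germinal centre B cells. It measured 130, 78.8, 135 and 113 CPM in YC, 0.161, 0.113 and 0.0536 CPM in pBIC, and 1.0, 0.937 and 11 CPM in pBIC10. In pBIC all libraries were at or under the floor of 3 reads, with 6 reads in all, while pBIC10 replicate 3, from the male, was 11.8 times the lowest pBIC10 library. The residual share was 0.0955% in pBIC (-9.93 ± 1.09, adjusted p = 2.64e-05) and 3.78% in pBIC10 (-4.70 ± 0.75, adjusted p = 0.000313). Without pBIC10 replicate 3 the fall in pBIC10 was -6.86. Rgs13 was higher in pBIC10 than in pBIC (5.23 ± 1.13, adjusted p = 0.00475), by 3.08 without pBIC10 replicate 3, and the call was lost without pBIC replicate 3 (4.92, adjusted p = 0.0503; over the alternatives 1.34e-05 to 0.0503).

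Gcsam encodes a membrane adaptor that slows the motility of germinal centre B cells. It stood at 151, 45.6, 81.8 and 77.1 CPM in YC. The pBIC libraries had 0.00, 0.0565 and 0.00 CPM and the pBIC10 libraries 0.177, 0.00 and 0.00 CPM, so 4 of the 6 lymphoma libraries had no read. The pooled level was 0.0202% of YC in pBIC, with a 95% counting interval of 0.000512 to 0.113% (edgeR adjusted p = 1.15e-06), and 0.0624% in pBIC10, with an interval of 0.0129 to 0.182% (edgeR adjusted p = 1.27e-06). The 2 lymphoma groups, with 1 and 3 reads, could not be told apart at this depth (edgeR adjusted p = 0.628).

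Nuggc, a nuclear GTPase of germinal centre B cells, measured 194, 163, 197 and 155 CPM in YC, 0.161, 0.00 and 0.107 CPM in pBIC, and 30.0, 22.7 and 2.92 CPM in pBIC10. It had 5 reads in all of pBIC, and within pBIC10 replicate 3 lay 10.3 times below the highest library. The mean that remained was 0.0504% in pBIC (-10.81 ± 0.96, adjusted p = 6.83e-06) and 10.5% in pBIC10 (-3.26 ± 0.58, adjusted p = 0.000681). The difference between the lymphoma groups (7.55 ± 0.96, adjusted p = 0.000154) was the largest among the 10 genes, and it rests on the few reads of pBIC: without pBIC replicate 1 it was 8.21, and the fall in pBIC was -11.46.

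Neil1, a DNA glycosylase that removes oxidised bases, measured 395, 383, 558 and 390 CPM in YC, 3.54, 3.56 and 5.89 CPM in pBIC, and 24.7, 27.6 and 16.9 CPM in pBIC10. The 3 groups were clearly apart. The highest library was 1.66 times the lowest in pBIC, 1.63 times in pBIC10 and 1.46 times in YC. The share left was 1.0% in pBIC (-6.64 ± 0.30, adjusted p = 3.60e-08) and 5.35% in pBIC10 (-4.23 ± 0.27, adjusted p = 2.70e-07). Neil1 was higher in pBIC10 than in pBIC (2.41 ± 0.26, adjusted p = 2.75e-05).

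Basp1, a lipid-anchored protein that binds calmodulin and also acts as a transcriptional corepressor, stood at 287, 193, 305 and 267 CPM in YC. The pBIC libraries measured 8.31, 6.84 and 6.00 CPM, and the pBIC10 libraries 102, 82.6 and 37.1 CPM. The groups did not overlap, and pBIC10 replicate 3 was again the lowest of its group, as for S1pr2, Nuggc and Neil1. The residual mean was 2.68% in pBIC (-5.22 ± 0.36, adjusted p = 7.12e-07) and 28.1% in pBIC10 (-1.83 ± 0.30, adjusted p = 0.000287). Basp1 was higher in pBIC10 than in pBIC (3.39 ± 0.34, adjusted p = 1.83e-05).

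**Figure D2:**
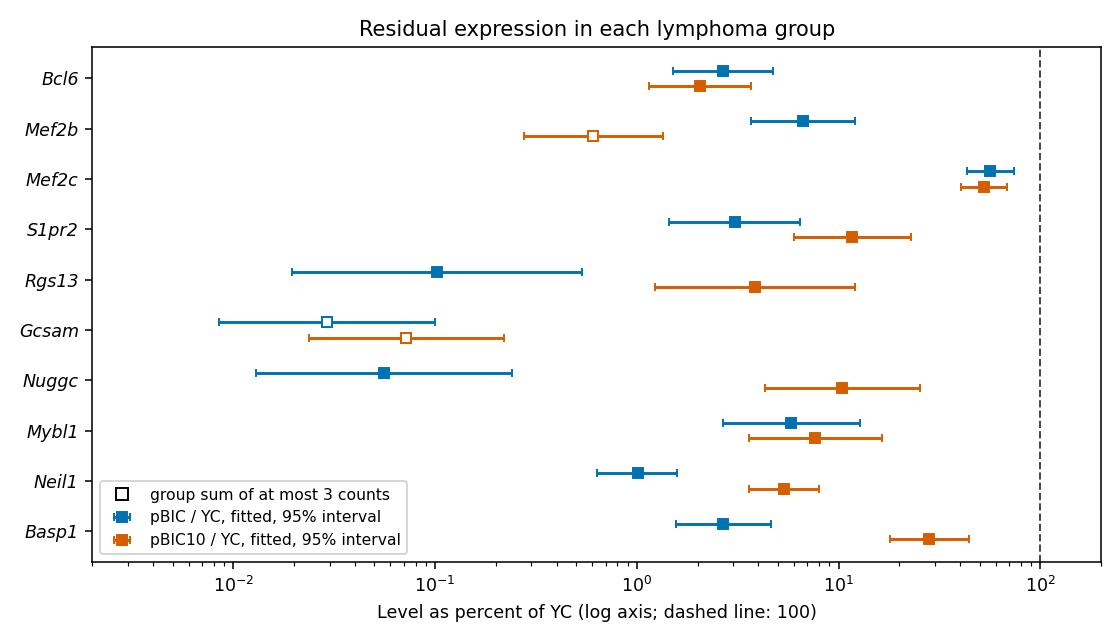
Fitted level of each member in pBIC and pBIC10 as a percent of YC on a log axis, with 95% intervals from the approximate SE; the dashed line is the YC level, and open squares mark group sums of at most 3 counts, where the fitted value depends on the prior count. All intervals lie below the dashed line, with Gcsam in pBIC the lowest and Mef2c in pBIC, at 56.6%, the highest.

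As a list, the 10 genes had a median log2 fold change against YC of -5.22 in pBIC, beside 0.02 over all genes. Their median in pBIC10 was -3.97, beside 0.01. These are comparisons in which many genes moved: 54.1% of tested genes were called in pBIC (26.4% higher) and 51.7% in pBIC10 (24.8% higher). For all 10 members each lymphoma group lay apart from YC with no overlap of libraries. Such separation was found for 28.0% of tested genes in the lower and 26.3% in the higher direction in pBIC, and for 31.0% and 30.0% in pBIC10. Both comparisons use the same 4 YC libraries. A fall in both was called for 18.4% of all tested genes. In bulk RNA, fewer cells that express a gene and less RNA per cell cannot be told apart. Within each lymphoma library the median member stood at 1.89 to 2.60% of its YC mean in pBIC and at 4.76 to 6.73% in pBIC10. Those ranges did not overlap, and pBIC10 replicate 3 had the lowest value of its group.

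Between the lymphoma groups 6 members were called, in a comparison where 30.7% of tested genes were, and the median of the 10 was 1.62 beside -0.01 over all genes. The 4 not called were Bcl6, Mef2c, Gcsam and Mybl1. Libraries did not overlap for the 6 called genes, where 22.1% of tested genes were fully higher and 19.7% fully lower. The count of members called was 5 to 7 when 1 library was left out. It was 5 without pBIC replicate 3 and 7 without pBIC replicate 1.

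**Figure D3:**
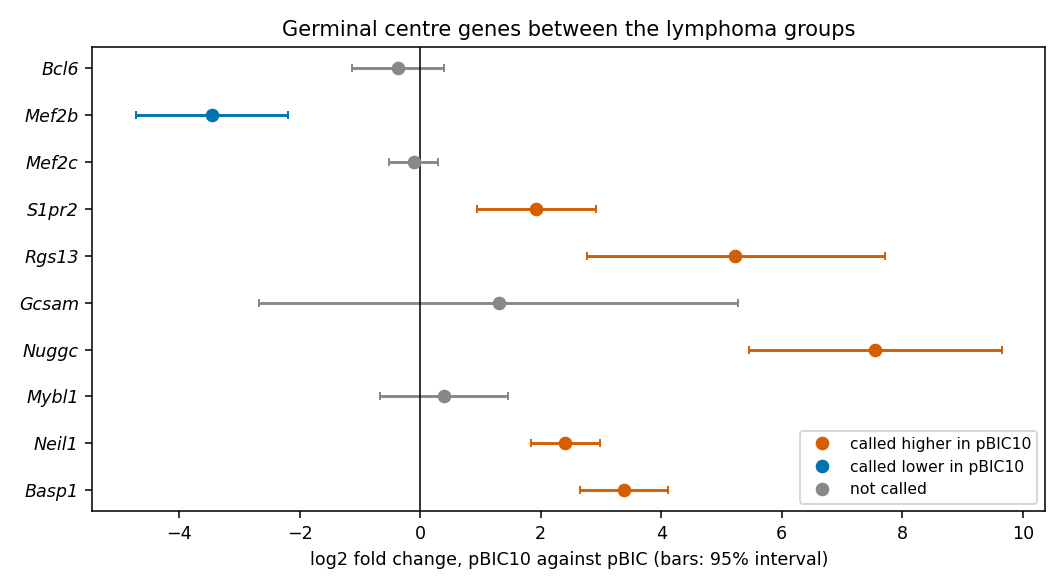
Log2 fold change of each member in pBIC10 against pBIC (n = 3 each), with bars for the 95% interval and colours for the call. Nuggc (7.55) and Rgs13 (5.23) lie farthest to the right, Mef2b (-3.45) is the only gene called lower in pBIC10, and the intervals of Bcl6, Mef2c, Gcsam and Mybl1 include 0.

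The order of the members was compared per kb of exon (CPM divided by the exon length of GENCODE M21). In YC the order was Neil1 (231 ± 45.1 CPM per kb), Basp1 (131 ± 24.6), Rgs13 (69.0 ± 15.4), Nuggc (62.4 ± 7.57), Mef2c (34.9 ± 2.75), Bcl6 (33.6 ± 10.6), Gcsam (26.0 ± 13), S1pr2 (21.7 ± 4.80), Mybl1 (18.2 ± 8.40) and Mef2b (7.46 ± 0.652). Neighbours overlapped between Rgs13 and Nuggc and all along the run from Mef2c to Mybl1. Neil1, Basp1 and Mef2b stood apart from their neighbours. In pBIC the order was led by Mef2c (19.8 ± 4.34 CPM per kb), which did not overlap with Basp1, the next gene (3.51 ± 0.582). Neighbours from Basp1 down to Mef2b overlapped, and Rgs13, Nuggc and Gcsam came last, each at most 0.0659 CPM per kb. In pBIC10 Basp1 (36.8 ± 16.6) and Mef2c (18.3 ± 2.98) led and overlapped, followed by Neil1 (12.3 ± 2.95), Nuggc (6.54 ± 4.94), Rgs13 (2.61 ± 3.51) and S1pr2 (2.53 ± 1.15), with Mef2b and Gcsam last.

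The relatives of the members did not all follow them. In the lists that follow, counts against YC stand beside the shares of all tested genes. These were 26.4% higher and 27.7% lower in pBIC, and 24.8% higher and 26.9% lower in pBIC10. Of 9 other RGS genes, 6 were lower and 0 higher in pBIC against YC, and 9 were lower in pBIC10, with medians of -2.98 and -2.54. Rgs1, which also dampens chemokine signals, stood at 263 CPM in YC, 10.6 in pBIC and 4.98 in pBIC10 (-4.63 ± 0.61, adjusted p = 9.51e-05, and -5.72 ± 0.65, adjusted p = 3.39e-05). Rgs10 was at 32.9, 1.77 and 2.75 CPM. The MEF2 paralogues went other ways. Mef2d stood at 277 CPM in YC, was lower in pBIC (163 CPM, -0.77 ± 0.21, adjusted p = 0.00833) and higher in pBIC10 (482 CPM, 0.80 ± 0.21, adjusted p = 0.00598). Mef2a was not called in pBIC (0.30 ± 0.18, adjusted p = 0.175) and was higher in pBIC10 (0.62 ± 0.18, adjusted p = 0.0112).

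The class IIa deacetylases, which bind MEF2 factors and turn them into repressors, are Hdac4, Hdac5, Hdac7 and Hdac9. All 4 were lower in pBIC than in YC, but only Hdac7 and Hdac9 were lower in pBIC10, where Hdac4 (-0.05 ± 0.18, adjusted p = 0.848) and Hdac5 (0.15 ± 0.22, adjusted p = 0.580) were not called. Hdac9 stood at 52.2 CPM in YC, 0.307 in pBIC and 16.3 in pBIC10 (-7.37 ± 0.40, adjusted p = 9.03e-08, and -1.68 ± 0.27, adjusted p = 0.000250), and it was 5.69 ± 0.39 higher in pBIC10 than in pBIC (adjusted p = 8.93e-07). Hdac7 stood at 355, 17.3 and 73.5 CPM. Of the 6 MEF2 and deacetylase genes tested, 5 were higher and 0 lower in pBIC10 against pBIC, beside 15.6% and 15.1% of all tested genes. Among the MYB genes, Myb rose in both lymphomas, from 26.2 CPM in YC to 42.0 in pBIC (0.68 ± 0.23, adjusted p = 0.0214) and 139 in pBIC10 (2.40 ± 0.23, adjusted p = 4.53e-06), although pBIC and YC libraries overlapped. Mybl2, a factor of dividing cells, fell by 0.62 and by 0.65 on the log2 scale. Of 9 other DNA glycosylases tested, 3 were lower and 3 higher in pBIC, and 1 was lower and 4 higher in pBIC10. Neil3, which acts at replication forks, stood at 30.5 CPM in YC, 5.84 in pBIC and 20.5 in pBIC10 and was called lower in pBIC (-2.38 ± 0.30, adjusted p = 3.53e-05). Marcksl1, a relative of Basp1 in the family of calmodulin-binding membrane proteins, stood at 243, 98.4 and 85.8 CPM.

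Around S1PR2, the signalling and egress list of 12 genes had 10 lower and 0 higher in pBIC and 8 lower and 0 higher in pBIC10 against YC, with medians of -1.67 and -0.92. Arhgef1, an exchange factor that acts downstream of S1PR2, stood at 1434 CPM in YC, 252 in pBIC and 395 in pBIC10 (-2.51 ± 0.24, adjusted p = 5.24e-06, and -1.86 ± 0.23, adjusted p = 3.45e-05). Cxcr4, the chemokine receptor of the dark zone, was at 303 CPM in YC and 73.4 in pBIC (-2.05 ± 0.36, adjusted p = 0.000656). In pBIC10 it was at 391 CPM and was not called against YC (0.37 ± 0.34, adjusted p = 0.385). Cxcr4 was 2.41 ± 0.38 higher in pBIC10 than in pBIC (adjusted p = 0.000672). It was the only gene of this list called between the lymphoma groups (1 of 12, beside 30.7% of all tested genes).

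Other genes typical of germinal centre B cells fell less in the middle of the list than the members, with medians of -1.37 in pBIC and -1.49 in pBIC10, a difference that was not tested. Of 22 genes, 18 were lower in each lymphoma against YC and 0 higher. Foxo1, a dark zone factor, stood at 282 CPM in YC, 33.6 in pBIC and 100 in pBIC10. Bach2, a repressor of plasma cell fate, was at 247, 12.4 and 82.4 CPM, and both were higher in pBIC10 than in pBIC (1.57 ± 0.18, adjusted p = 3.51e-05, and 2.74 ± 0.36, adjusted p = 0.000163). Il21r, the receptor for the T cell cytokine IL-21, and Fas, a death receptor of germinal centre B cells, went the other way. Il21r stood at 303, 213 and 47.5 CPM and Fas at 76.1, 37.3 and 6.06 CPM, and both were lower in pBIC10 than in pBIC (-2.16 ± 0.17, adjusted p = 2.68e-06, and -2.62 ± 0.28, adjusted p = 2.52e-05).

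Dark zone genes had 5 of 10 lower in pBIC and 9 of 10 in pBIC10, with 0 higher in either. Light zone genes had 6 lower and 2 higher in pBIC and 9 lower and 1 higher in pBIC10. The higher one in both was Myc, a growth regulator, at 310 CPM in YC, 742 in pBIC (1.26 ± 0.30, adjusted p = 0.00394) and 2046 in pBIC10 (2.72 ± 0.31, adjusted p = 2.53e-05). Cd83, an activation protein, stood at 319, 211 and 21.1 CPM and was called lower in both, at -0.60 ± 0.23 in pBIC with overlapping libraries (adjusted p = 0.0397) and at -3.92 ± 0.26 in pBIC10 (adjusted p = 4.40e-07).

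Genes reported to be repressed by BCL6 split in both lymphomas, beside the low Bcl6 levels. Of 21 such genes, 8 were higher and 8 lower in pBIC, beside 26.4% and 27.7% of all tested genes. In pBIC10 4 were higher and 9 lower, beside 24.8% and 26.9%. The medians were 0.16 in pBIC and -0.41 in pBIC10, and no departure from all tested genes was tested. Trp53 and Prdm1, which Cre deletes here, belong to this list. Bcl2, an inhibitor of apoptosis, stood at 38.3 CPM in YC, 180 in pBIC (2.23 ± 0.24, adjusted p = 1.07e-05) and 109 in pBIC10 (1.5 ± 0.23, adjusted p = 0.000170). Cd80, a ligand that costimulates T cells, was at 6.18, 14.5 and 35.7 CPM and was called higher in both (1.24 ± 0.35, adjusted p = 0.0101, and 2.53 ± 0.36, adjusted p = 9.00e-05), although pBIC and YC libraries overlapped. Ccl3, a chemokine, stood at 7.35, 3.31 and 0.154 CPM, and Batf, a factor of activated lymphocytes, at 51.8, 92.4 and 7.04 CPM. Batf was called higher in pBIC (0.83 ± 0.31, adjusted p = 0.0359), with overlapping libraries. Both were lower in pBIC10 than in YC (-5.54 ± 0.58, adjusted p = 8.54e-06, and -2.88 ± 0.35, adjusted p = 3.74e-05).

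**Figure D4:**
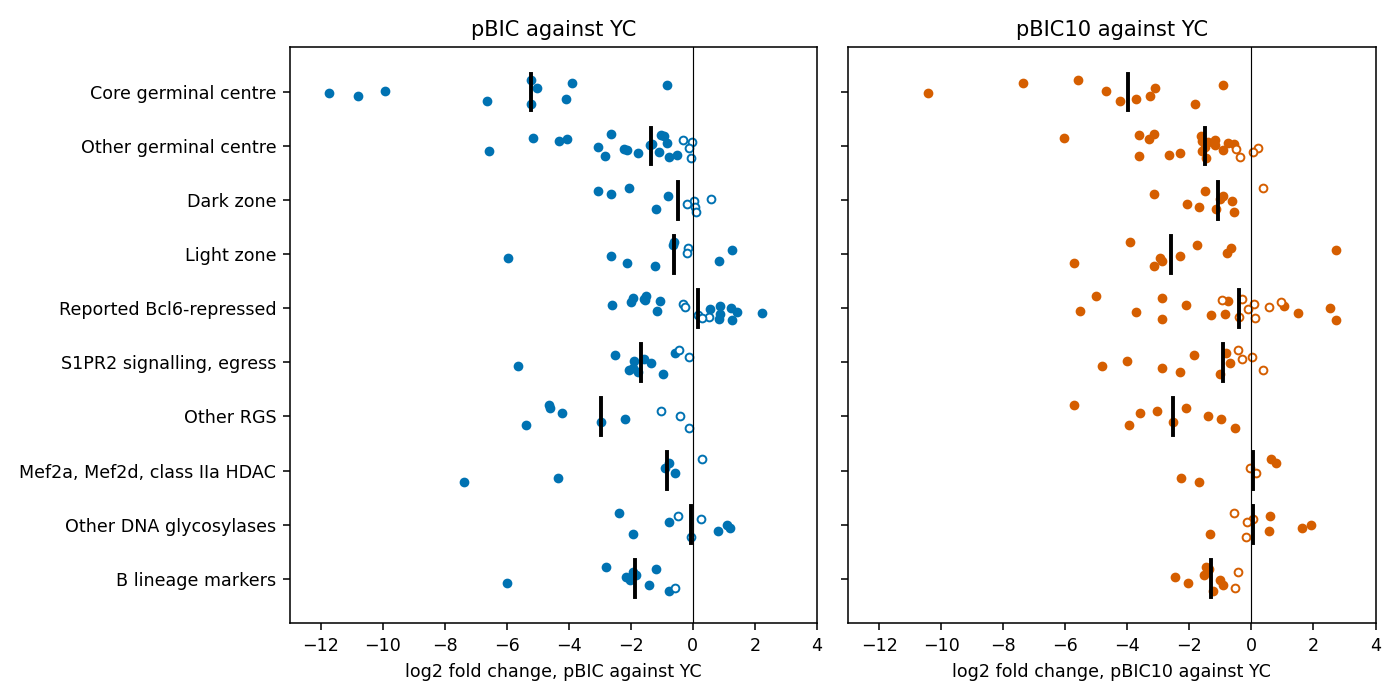
Log2 fold changes against YC in pBIC (left) and pBIC10 (right) for the genes of 10 lists; each point is a gene, filled where called and open where not, and the black bar is the list median. The members' medians (-5.22 and -3.97) are the lowest of these 10 lists, which were chosen with earlier results of these data known. Plasma cell genes, naive and memory genes and markers of other cells are left out. Of these, T cell and NK cell markers had lower medians in pBIC10 (-5.51 and -4.85). The reported Bcl6-repressed genes lie on both sides of 0.

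Genes of B cell identity also moved with the members. Of 10 B lineage markers, 9 were lower in pBIC and 8 in pBIC10, with medians of -1.88 and -1.31. Of 10 plasma cell genes, 7 were lower in pBIC and 8 in pBIC10, with 0 higher. Naive and memory genes had 7 of 12 lower and 2 higher in pBIC, and 5 lower and 4 higher in pBIC10. Fcer2a, the low affinity IgE receptor of naive B cells, was at 592 CPM in YC, 1.08 in pBIC and 8.09 in pBIC10. Jchain, a plasma cell gene, was at 1510, 186 and 5.87 CPM. The YC sort thus also held RNA of genes typical of naive follicular B cells and of plasma cells. The part of such cells in the fall of the members was not tested.

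Most markers of other cells were higher in YC, erythroid markers and Madcam1 apart. The summed level of 12 T cell markers was 337 to 565 CPM in YC, 51.2 to 89.1 in pBIC and 41.7 to 65.3 in pBIC10. Against YC, 11 of 12 were called lower in pBIC and 12 of 12 in pBIC10, with medians of -3.11 and -5.51. Lck, at 36.5, 37.6 and 57.7 CPM in the pBIC10 libraries, made up most of the pBIC10 sums. Between the lymphomas Lck was the 1 marker called higher in pBIC10, and 9 of the 12 were called lower, beside 15.6% and 15.1% of all tested genes. T follicular helper cells also express Bcl6. Cd3e, a chain of the T cell receptor complex, was at 16.2 CPM in YC, 1.53 in pBIC and 0.363 in pBIC10. NK cell markers summed to 24.8 to 72.9 CPM in YC, 3.37 to 15.7 in pBIC and 0.871 to 2.77 in pBIC10 (5 of 6 and 6 of 6 lower, medians -4.18 and -4.85). Myeloid markers summed to 159 to 231 CPM, 19.3 to 74.6 and 23.3 to 39.6 (7 and 10 of 11 tested lower). Erythroid markers summed to 184 to 543 CPM, 32.2 to 662 and 630 to 1628, with 3 of 6 called higher in pBIC10. Stromal markers summed to 416 to 687 CPM, 26.5 to 90.0 and 7.07 to 10.2 (2 of 3 tested lower in each), and Fcer2a, counted in this list too, made up most of the YC sum. The other tested gene, Madcam1, an adhesion molecule, was higher in pBIC (47.6 CPM against 0.460 in YC, 6.66 ± 0.82, adjusted p = 5.72e-05) and, at 30.0, 87.8 and 25 CPM in its libraries, made up most of the pBIC sum. None of these genes was at 0 in all YC libraries, and Col3a1 was in pBIC. Their part in the result was not tested.

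The genes whose profile was most like the mean profile of the members were sought over the 10 libraries among 11820 genes with a mean of at least 5 CPM, by the root mean square difference of centred log2 CPM. The 5 closest were Hook1 (0.44 log2 units), Tmem181b-ps (0.47), Plekhg2 (0.50), Gm39272 (0.51) and Psrc1 (0.55). Hook1 stood at 25.6 ± 3.32 CPM in YC, 0.217 ± 0.140 in pBIC and 1.10 ± 0.344 in pBIC10. Plekhg2 stood at 319 ± 67.2, 9.97 ± 5.26 and 21.1 ± 6.08 CPM. Tmem181b-ps is named as a pseudogene, whose reads may be shared with near-identical copies. Among the members themselves Neil1 was closest to the mean profile (0.46) and Mef2c farthest (2.18).

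The targets of the alleles served to check the labels. Trp53 fell in both lymphomas, from 191 CPM in YC to 31.6 in pBIC and 44.6 in pBIC10. Prdm1 stood at 28.7, 10.0 and 0.863 CPM, Ikbkb, which encodes IKK2, at 141, 285 and 390 CPM, and Il10 at 7.20, 11.7 and 3.16 CPM. Counts are over whole genes, so reads from the exons that a deleted allele keeps are included.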

How the data were processed

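The authors deposited 1 table of raw read counts per gene, made with featureCounts after FastQC on GRCm39, per the submitters' processing notes; no aligner, annotation release, strand setting or version is given in the sources used here. Reads were single-end of 50 nt, per the labels' protocols. All columns matched a sample (0 left over). Genes were kept by filterByExpr (17718 tested), TMM-scaled, and modelled over the 3 groups together in edgeR 4.0.16 (R 4.3.3; robust quasi-likelihood), with Benjamini-Hochberg adjustment over all tested genes of a comparison. The SE is the size of the log2 fold change divided by the square root of F. Percents of YC are ratios of mean CPM. Group sums of 1 to 3 counts were given exact 95% counting intervals. The pipeline was checked on simulated counts.

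The members and lists were chosen with earlier results of these data known. The 10 members were always named; from other lists, the called genes with the lowest adjusted p (at most 3 a direction), paralogues of members and the 4 targeted genes could be named. Fas, Batf, Ccl3, Cd80, Cd83 and others so allowed in 1 comparison are given in all. Some genes that the rule allows are not reported here. Alternatives were RLE size factors, library size alone, DESeq2 1.42.0, limma-voom (limma 3.58.1), other filters, only 2 groups in the fit, a term for sex, only females, antigen receptor genes left out, leaving out each library and, chosen after seeing the data, each lymphoma group summed to 1 library. Figures used matplotlib 3.10.9.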

Additional observations from a re-analysis of the deposited data

Results flagged for a closer look

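Among the 10 members, each tested in the 4 YC libraries, 1 value stood apart from the rest of its group. Neil1 in YC replicate 3, from the male, was at 558 CPM, against 383 to 395 CPM in the other 3 YC libraries, a gap larger than expected by the 95% limit of Dixon's test. Chance alone marks about 1 in 20 groups. Groups of 3 libraries were not tested.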

How the results depend on the processing

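In both comparisons against YC, all 10 members were called lower under every alternative run. Between pBIC10 and pBIC, 201 of 209 refits of single members kept their direction and call. With 1 library left out Bcl6 ranged from -0.60 to 0.13, Mef2c from -0.24 to 0.09 and Gcsam from -1.74 to 3.04. Bcl6 was 0.13 without pBIC replicate 1. Mef2c was 0.02 in females alone, 0.09 without pBIC replicate 3 and 0.03 without pBIC10 replicate 3. Gcsam was -1.74 without pBIC10 replicate 1, which leaves 1 read in the lymphoma groups. The other 3 were the changes of S1pr2, Rgs13 and Mybl1 given above. The median of the members in pBIC10 against pBIC (1.62) was 1.30 with limma-voom, 1.92 with only the 2 groups compared (Gcsam not tested) and 2.08 in females alone, and ranged from 1.05 to 2.09 with 1 library left out; the cause was not tested. In pBIC against YC it ranged from -5.54 to -5.08 with 1 library left out. With each lymphoma group summed to 1 library, 2925 genes were called between the lymphomas in place of 5440, where the spread comes from YC alone. Rgs13 in pBIC10 against pBIC (5.23) was 4.18 with limma-voom, 3.98 with a term for sex and 3.07 in females alone, and against YC (-4.70) it was -5.59, -5.61 and -6.76. Nuggc in pBIC10 against YC (-3.26) was -3.86 with limma-voom. Without a filter the median of all genes against YC was -0.326 in pBIC and -0.264 in pBIC10, from the low genes added. No paired analysis was run because the labels give no pairing of libraries between groups. The replicate numbers used here follow the order of the samples in the series. Depth limits Gcsam in both lymphomas, Mef2b in pBIC10, and Rgs13 and Nuggc in pBIC, which had at most 6 reads a group.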
